A study of Mus musculus with 3 samples.

Results

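DNA replication and mitosis are run by a group of genes that cells switch on when they enter the division cycle. The open chromatin of 47 such genes was described in 3 fractions of mouse CD4+ T cells, profiled by ATAC-seq, an assay that reads open DNA by where a transposase can cut it. The 47 genes were a fixed list of replication and mitosis genes, out of 21887 protein-coding genes of the RefSeq mouse annotation. Peaks of the 3 deposited lists that shared at least 1 bp were merged into 57457 regions, of which 122 had a member as the nearest gene within 100000 bp. Of these, 51 lay within 1000 bp of a gene end and 71 lay farther inside the gene or outside it.

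The fractions were sorted from colon-draining mesenteric lymph nodes. Divided cells were CBir1 T cells that had diluted the dye CellTrace Violet. Undivided cells were CBir1 T cells that had kept the dye. Polyclonal cells were the recipients' own CD4+ T cells without the CBir1 receptor. CBir1 cells carry a transgenic T cell receptor for a bacterial flagellin, and they were transferred as naive splenic CD4+ cells into 4 wild-type C57BL/6J recipients. Every recipient drank 2% dextran sulfate sodium for 7 days, which damages the colon epithelium, and received 1 mg/kg FTY720, which holds lymphocytes in lymph nodes, on days 7, 10 and 13. Nodes were taken on day 14 after dextran sulfate sodium was started, so no fraction came from an untreated mouse. Cells of 2 mice were pooled and pools were made in duplicate per the labels, but the analysis had 1 peak list for a fraction. With 1 library in a group, no difference below has a replicate check, and intervals cover counting error only.

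Division needs 2 waves of gene activity. Before and during DNA synthesis, transcription factors of the E2F family switch on the genes that load the MCM helicase onto origins, copy DNA and supply nucleotides. Later, the genes of chromosome condensation, spindle assembly and cytokinesis are switched on through a promoter element called the cell cycle genes homology region (CHR), bound by the MuvB complex together with B-MYB and FOXM1. CCAAT boxes bound by NF-Y are common in the same promoters. In resting cells, MuvB-containing repressor complexes sit on both classes of promoter. Resting T cells keep these genes largely silent, and antigen recognition starts them. The members were split here into 20 replication genes and 27 mitosis genes.

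The value given for a region is its summit pileup, the number of fragments stacked at the summit of the peak. It was recovered as a whole number from the deposited fold enrichment and p-value of 99.996% (divided), 99.995% (undivided) and 99.993% (polyclonal) of the peaks. Depth in reads was unknown. The lowest background was 1.21 fragments for divided, 0.808 for undivided and 0.865 for polyclonal cells, so by this measure the divided library was the deepest. Pileups are printed unscaled. Ratios were scaled so that the median over regions called in all 3 libraries was 1, which divided the raw ratio by 1.21 for divided over undivided, 1.19 for divided over polyclonal and 0.989 for undivided over polyclonal. Of 12 T cell genes, a gene-end region was called at 12 (divided), 12 (undivided) and 11 (polyclonal cells), where none was called at Cd4. Of 10 B cell genes, the divided library had one at 5, the undivided at 2 and the polyclonal at 3, and Ms4a1 and Pax5 had none in any fraction. Of 9 myeloid, 6 epithelial and 4 natural killer genes, no fraction had more than 2, 2 and 1. Of 6 erythroid genes 2 had one in each fraction, and of 2 CD8 genes Cd8b1 had one, with 33 fragments in divided cells, 51 in undivided cells and 63 in polyclonal cells. The summed gene-end pileup of the B cell genes was 159 fragments in divided cells, 118 in undivided cells and 139 in polyclonal cells. The part of other cell types in the results below was not tested.

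The promoters of the members show both classes of sequence. RefSeq promoter windows (GRCm38.p6, the assembly of mm10) run from 250 bases before to 50 bases after the annotated start and were used for 39 members, which leaves out Ccna2, Foxm1, Mcm4, Gins2, Kif20a, Aurkb, Tpx2 and Ccne2. The windows below are those of the members with the highest divided pileup of each role, and with the lowest in the 4 largest roles, where the window held E2F or CHR letters. They are printed 5′ to 3′ on the strand of the gene. Capitals mark exact matches on either strand to E2F letters (TTTCCCGC, TTTCGCGC, TTTGGCGC, TTTGCCGC, TTCCCGCC, TTCGCGCC, TTGGCGCC or TTGCCGCC), to CHR letters (TTTGAA or TTCGAA), to CCAAT or to the TATA box letters TATAAA. Matches that overlap run together.
Mcm3 (chr1:20820263-20820562, minus strand): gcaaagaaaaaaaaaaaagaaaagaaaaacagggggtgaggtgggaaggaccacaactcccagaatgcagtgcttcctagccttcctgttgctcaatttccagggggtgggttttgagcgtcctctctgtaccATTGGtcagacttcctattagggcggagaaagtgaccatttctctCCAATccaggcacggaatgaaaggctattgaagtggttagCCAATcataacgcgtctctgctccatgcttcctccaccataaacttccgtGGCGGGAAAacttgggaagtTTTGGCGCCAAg
Cdk1 (chr10:69352863-69353162, minus strand): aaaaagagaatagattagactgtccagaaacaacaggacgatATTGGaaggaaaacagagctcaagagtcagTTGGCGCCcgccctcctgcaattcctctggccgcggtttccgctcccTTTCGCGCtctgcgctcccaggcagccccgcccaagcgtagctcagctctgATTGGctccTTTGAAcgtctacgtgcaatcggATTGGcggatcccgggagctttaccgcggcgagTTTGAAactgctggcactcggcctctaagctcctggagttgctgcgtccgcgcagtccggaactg
Ccnb2 (chr9:70421505-70421804, minus strand): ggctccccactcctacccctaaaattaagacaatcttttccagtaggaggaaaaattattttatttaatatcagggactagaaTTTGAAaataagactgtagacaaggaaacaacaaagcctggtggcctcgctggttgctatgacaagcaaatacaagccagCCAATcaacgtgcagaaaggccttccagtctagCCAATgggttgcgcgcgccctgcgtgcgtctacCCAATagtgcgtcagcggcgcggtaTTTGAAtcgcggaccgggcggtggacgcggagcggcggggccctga
Cdc20 (chr4:118437294-118437593, minus strand): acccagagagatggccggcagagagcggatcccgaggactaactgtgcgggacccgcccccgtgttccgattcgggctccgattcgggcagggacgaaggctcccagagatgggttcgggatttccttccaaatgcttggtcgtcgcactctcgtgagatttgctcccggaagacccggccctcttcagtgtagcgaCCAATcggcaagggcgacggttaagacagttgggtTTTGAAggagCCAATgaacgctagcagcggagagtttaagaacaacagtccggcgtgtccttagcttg
Plk1 (chr7:122159185-122159484, plus strand): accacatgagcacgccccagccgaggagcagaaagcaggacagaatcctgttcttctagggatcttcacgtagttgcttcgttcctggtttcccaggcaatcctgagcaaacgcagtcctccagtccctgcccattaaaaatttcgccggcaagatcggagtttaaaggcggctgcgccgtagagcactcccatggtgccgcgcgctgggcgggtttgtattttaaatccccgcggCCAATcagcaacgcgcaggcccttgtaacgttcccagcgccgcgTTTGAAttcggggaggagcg
Cenpa (chr5:30666636-30666935, plus strand): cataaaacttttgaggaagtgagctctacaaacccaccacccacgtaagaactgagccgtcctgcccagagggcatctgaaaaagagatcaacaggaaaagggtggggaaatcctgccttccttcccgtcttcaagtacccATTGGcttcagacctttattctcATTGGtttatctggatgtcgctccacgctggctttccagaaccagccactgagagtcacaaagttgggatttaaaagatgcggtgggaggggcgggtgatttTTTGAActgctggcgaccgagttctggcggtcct
Ect2 (chr3:27153829-27154128, minus strand): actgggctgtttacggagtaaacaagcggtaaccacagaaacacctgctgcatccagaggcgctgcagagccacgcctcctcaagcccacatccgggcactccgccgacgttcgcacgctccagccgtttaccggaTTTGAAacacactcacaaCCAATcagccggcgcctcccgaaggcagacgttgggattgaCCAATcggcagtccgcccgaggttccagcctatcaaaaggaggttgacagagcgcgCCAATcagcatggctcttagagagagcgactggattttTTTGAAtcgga
Anln (chr9:22389157-22389456, minus strand): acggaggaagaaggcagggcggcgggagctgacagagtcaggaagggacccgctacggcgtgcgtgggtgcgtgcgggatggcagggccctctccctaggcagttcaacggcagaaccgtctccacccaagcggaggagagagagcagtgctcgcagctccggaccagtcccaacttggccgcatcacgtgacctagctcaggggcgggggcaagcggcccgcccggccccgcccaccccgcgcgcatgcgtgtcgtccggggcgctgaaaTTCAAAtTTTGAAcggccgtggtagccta
Mki67 (chr7:135716330-135716629, minus strand): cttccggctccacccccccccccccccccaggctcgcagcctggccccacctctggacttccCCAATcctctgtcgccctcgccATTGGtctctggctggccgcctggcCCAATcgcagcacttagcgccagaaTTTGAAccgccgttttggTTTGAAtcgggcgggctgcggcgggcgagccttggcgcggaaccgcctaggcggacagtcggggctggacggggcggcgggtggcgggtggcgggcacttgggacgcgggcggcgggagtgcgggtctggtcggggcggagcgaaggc
Mcm3, which encodes a subunit of the MCM helicase, had 5 E2F matches and 0 CHR matches, several of them overlapping in the bases after its start. Cdk1, the kinase that drives mitosis, had 2 E2F and 2 CHR matches. The other 7 windows, all of mitosis genes, had 1 or 2 CHR matches and no E2F match. The windows of Pcna, Rrm2 and E2f1, picked by the same rule, held neither and are not printed.

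Across the members the letters divided by phase. E2F letters stood in the windows of 9 of 17 replication members (52.9%, Wilson 95% interval 31.0 to 73.8) and of 2 of 22 mitosis members (9.09%, 2.53 to 27.8), Cdk1 and Ccnb1. They stood in 7.60% of 17492 protein-coding genes with a window, and in 11.4% of the 9106 genes whose window overlapped a region called in all 3 libraries. CHR letters stood in 18 of 22 mitosis members (81.8%, 61.5 to 92.7) and in 4 of 17 replication members (23.5%, 9.56 to 47.3), against 20.2% of all genes and 14.7% of those with an open window. CCAAT stood in 19 of 22 mitosis members (86.4%) and 10 of 17 replication members (58.8%), against 42.3% of all genes. CHR letters and CCAAT stood together in 17 of 22 mitosis members (77.3%) and in 8.22% of all genes. TATA box letters were in 0 of 39 members, against 14.8% of all genes and 6.40% of those with an open window. Top2a, the topoisomerase that untangles chromosomes, had the most matches, with 4 CHR and 6 CCAAT. The mitosis members Birc5 and Nusap1 and the replication members Ccne1, E2f1, Tk1 and Tyms had none of the searched letters in their windows. These are counts of letters in a window and say nothing of what was bound.

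The same division was seen in related genes outside the list. Of 26 other replication genes with a window, 61.5% held E2F letters and 23.1% held CHR letters. Of 41 other mitosis genes, 9.76% held E2F letters and 68.3% held CHR letters.

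Letters were searched only in windows around the start, so their nearness to the summits given here follows largely from the search. No distance from letters to summits was measured. CHR matches of mitosis members started between positions -188 and 40 relative to the start, with a median of -5, and 17 of the 22 genes had a match that began no more than 50 bases before the start. CCAAT matches of mitosis members had a median start position of -68, so they lay before the CHR matches as a class. E2F matches of replication members had a median of -14. Of 41 gene-end regions at an annotated start, the summit lay at a median of -57 bp in divided cells, of -61 bp in undivided cells (38 regions) and of -43 bp in polyclonal cells (39 regions). Within 250 bp of the start were 33, 32 and 32 of these summits.

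**Figure D1:**
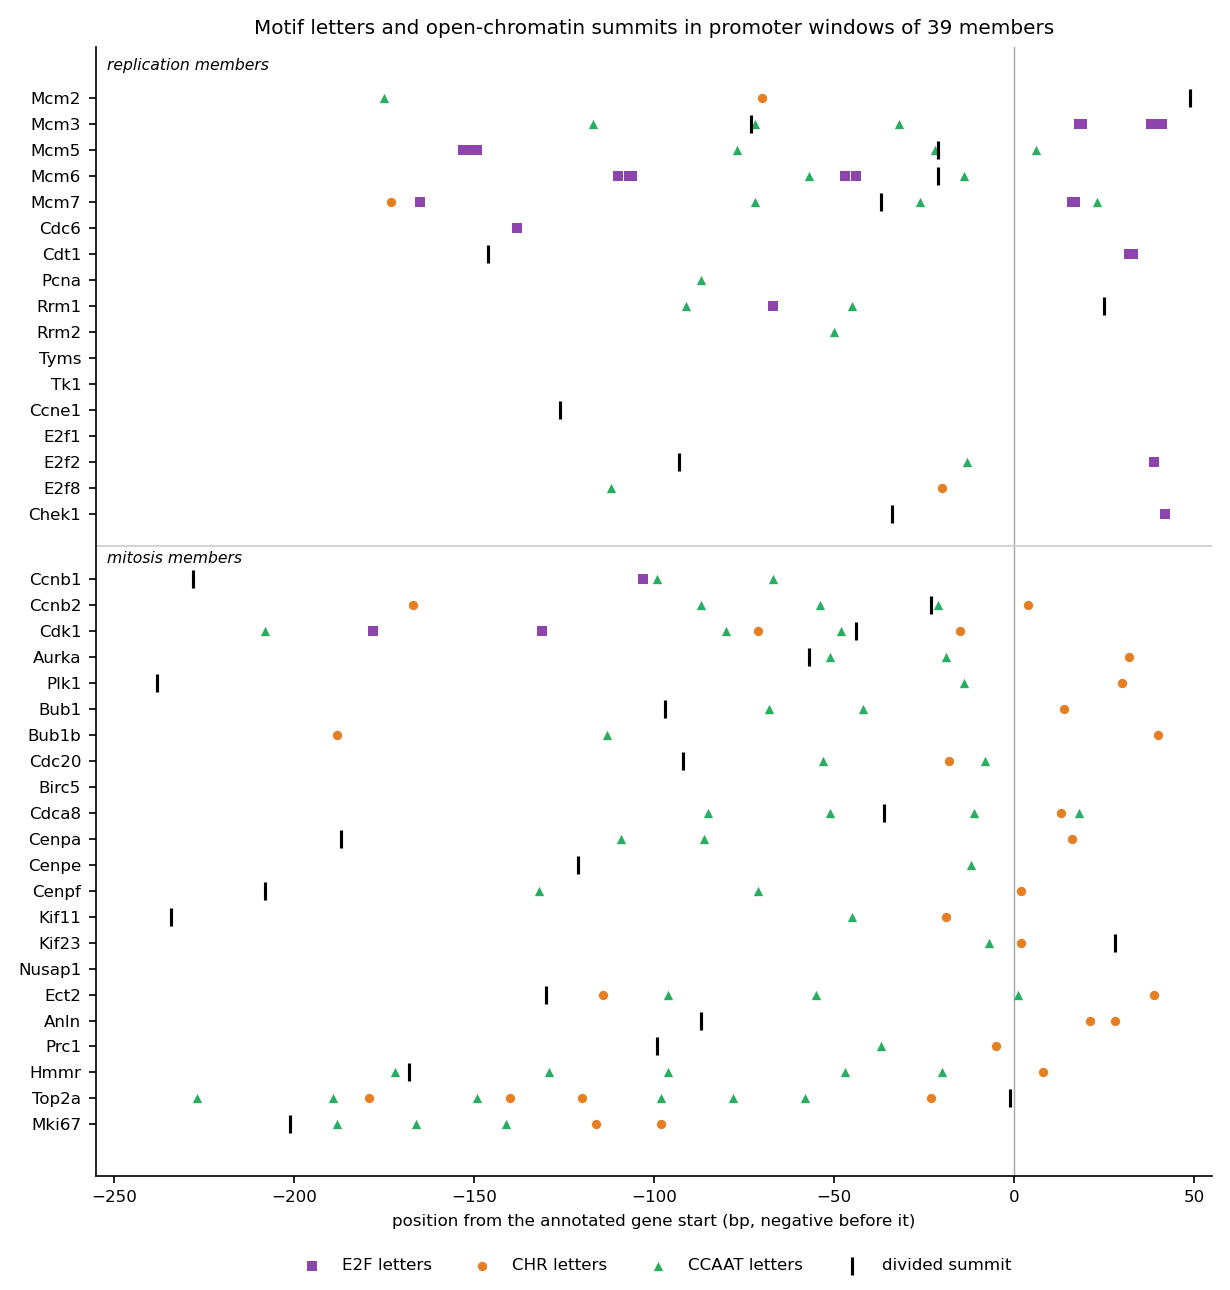
Position in bp from the annotated gene start of E2F, CHR and CCAAT letters and of the divided summit, for 39 members with a RefSeq promoter window, 1 window a gene. E2F letters gather among the 17 replication members and CHR letters near the start of the 22 mitosis members; summits outside the window are not drawn.

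Nearly every member was open at a gene end in every fraction. A gene-end region was called at 47 of 47 members in divided cells (95% interval 92.4 to 100%), at 46 of 47 in undivided cells (97.9%, 88.9 to 99.6) and at 46 of 47 in polyclonal cells. Of all protein-coding genes, 54.8%, 53.1% and 53.9% had one. Related genes outside the list were much like the members, with one at 49 of 49 other mitosis genes and 30 of 32 other replication genes in each fraction. The exception among the members was Tk1, the thymidine kinase of the salvage pathway. Its region at the start, shared with the neighbouring gene Afmid, had 30 fragments in divided cells and was not called in undivided or polyclonal cells. A region inside Tk1, just past the limit of 1000 bp from its start, was called with 60, 43 and 50 fragments in divided, undivided and polyclonal cells.

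Of the 51 gene-end regions, 48 were called in all 3 libraries (94.1%, 84.1 to 98.0), against 82.9% of 13053 gene-end regions of all genes. Where strand was known, 41 of 43 lay at the gene start, and the other two, at Bub1b and Tyms, lay at the 3′ end. Of the 51 regions, 12 were equally close to another gene, such as Prkdc at Mcm4, Cds2 at Pcna and Oip5 at Nusap1, and cannot be ascribed to the member alone.

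One-sided calls at gene ends were few, and the interval of each share below included the share of all gene-end regions. In divided and not undivided cells 3 of 51 were called (5.88%, 2.02 to 15.9), against 8.64% of all gene-end regions. In undivided and not divided cells it was 0 of 51 (0 to 7.00%), against 3.86%. Beside the Tk1 region, these were the second regions of Mcm6 and E2f2. The Mcm6 region, 828 bp after the start, had 29 fragments in divided cells at a −log10 q of 4.34 and was called in no other library. The E2f2 region, 678 bp after the start, had 39 fragments in divided and 19 in polyclonal cells. In divided and not polyclonal cells 2 were called (3.92%, 1.08 to 13.2), against 7.35% of all, and in polyclonal and not divided cells 0 (0 to 7.00%), against 4.08%. In undivided and not polyclonal cells 0 were called (0 to 7.00%), against 4.37%. In polyclonal and not undivided cells it was 1 (1.96%, 0.347 to 10.3), against 5.88%.

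**Figure D2:**
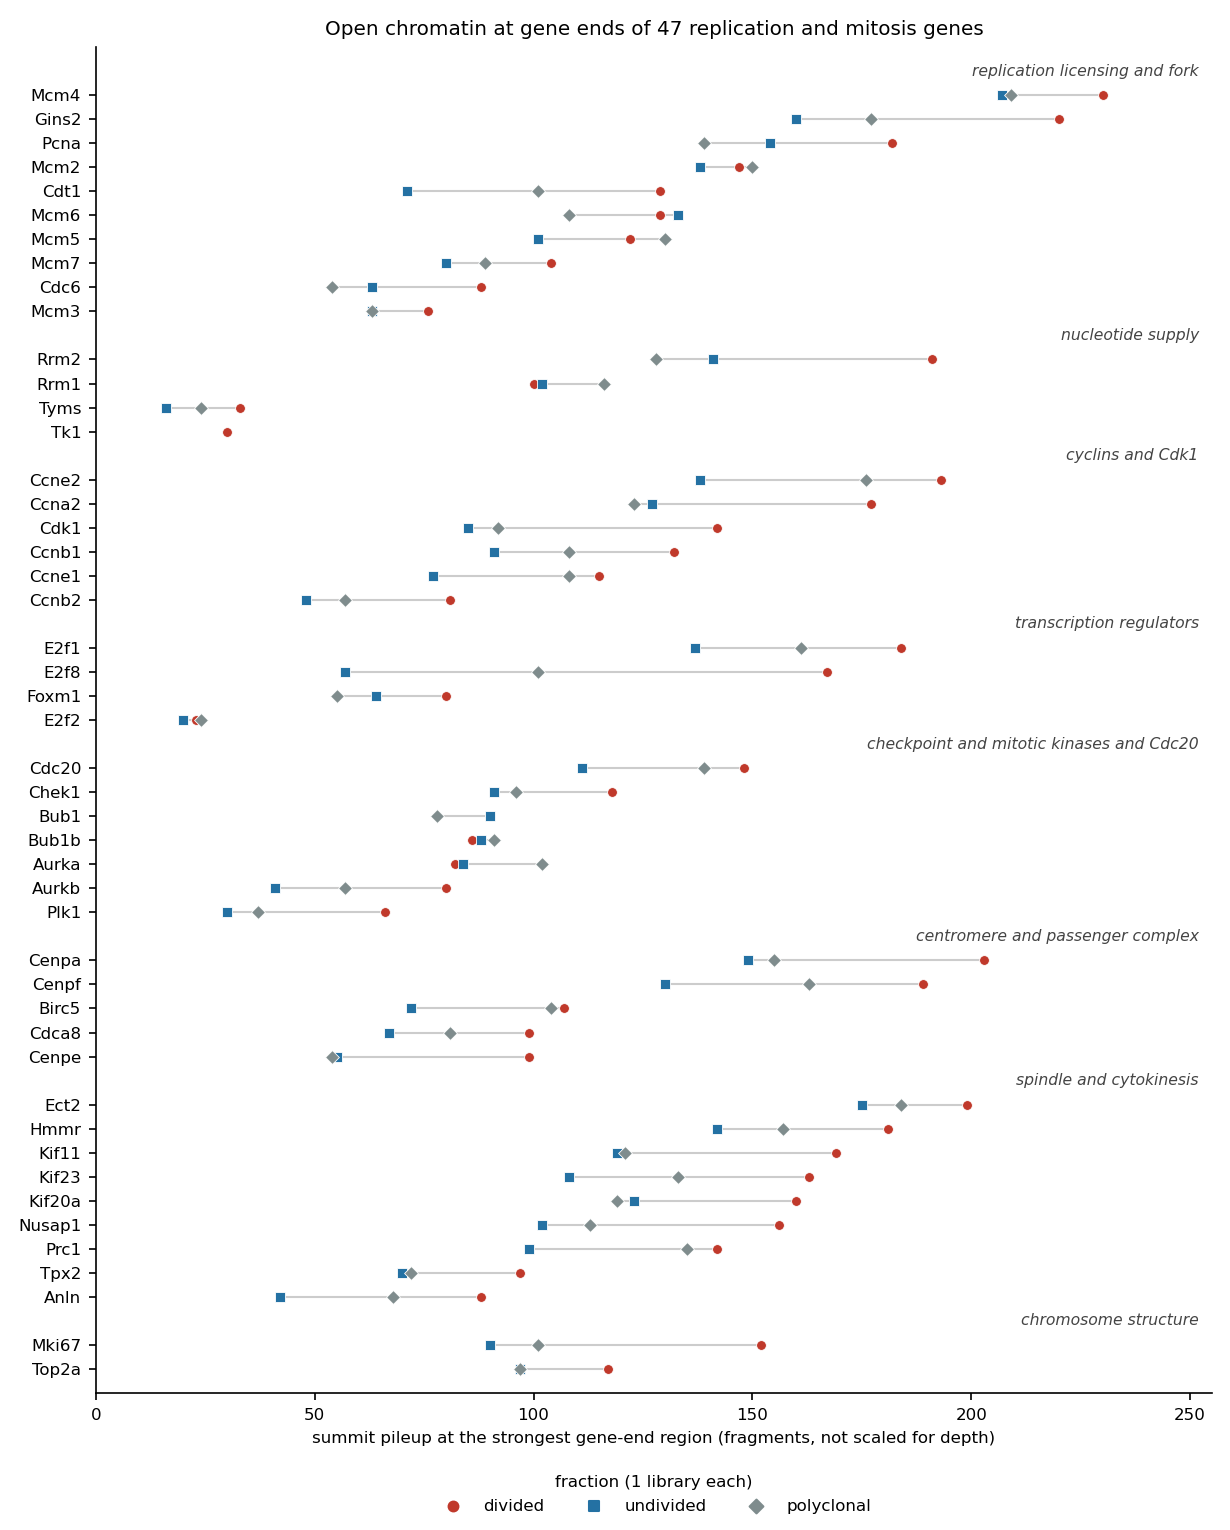
Summit pileup in fragments, not scaled for depth, at the strongest gene-end region of each of the 47 members in divided (circles), undivided (squares) and polyclonal (diamonds) cells, 1 library each, grouped by role. Pileups span 23 to 230 fragments in divided cells, and E2f8 has the widest gap between fractions.

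The summits at member gene ends also tended to be high. The median pileup at the strongest gene-end region was 129 fragments in divided cells, 91 in undivided cells and 106 in polyclonal cells. The median member stood at percentile 73.6 of all gene-end regions in divided cells, at 64.2 in undivided cells and at 70.3 in polyclonal cells. This ranks the strongest region of a member among all gene-end regions, weaker ones of a gene included. Over all member gene-end regions the median pileups were 118, 90.5 and 102 in divided, undivided and polyclonal cells. Those of all gene-end regions were 82, 68 and 71. The range was 23 to 230 fragments in divided cells, 16 to 207 in undivided cells and 24 to 209 in polyclonal cells. The highest divided values were 230 at Mcm4, a helicase subunit, 220 at Gins2, of the GINS complex that activates the helicase, 203 at Cenpa, the histone H3 variant of centromeres, 199 at Ect2, which starts cytokinesis, and 193 at Ccne2, which encodes a cyclin E. The lowest were 23 at E2f2, 30 at Tk1, 33 at Tyms, 66 at Plk1 and 76 at Mcm3. Pileups thus differed far more between members than between fractions at 1 member.

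At gene ends, members were on the whole somewhat more open in divided than in undivided cells, and the difference depends on how the signal is scaled. The median log2 ratio of scaled pileup, divided over undivided, was 0.18 over the 48 member regions called in both, with 37 of them above 0. Over 11070 gene-end regions of all genes it was 0.03, with 54.1% above 0. Mitosis members had a median of 0.24, with 24 of 28 regions above 0, and at their strongest regions 23 of 27 were above 0, against 9 when scaled by background and 13 by the authors' fold. Replication members had a median of 0.11, with 13 of 20 regions above 0, and at strongest regions 13 of 19, against 3 when scaled by background and 10 by the authors' fold. Past 1.5-fold, 6 member regions were higher in divided cells, against 6.68% of all gene-end regions, and 1 was lower, against 3.23%. The counting interval lay above 0 at 8 regions, against 5.75% of all, and below 0 at 0, against 4.07%. Scaled by the lowest background of each library instead, every ratio was shifted by -0.31 and the members' median was -0.13, against -0.28 for all gene-end regions. This scaling shifts all regions alike, so the gap of 0.16 between members and all gene-end regions is the same by construction. Counting intervals shift too, so of the 8 above 0 only that of E2f8 (lower limit 0.84) would stay there. Those of Mcm6 and Rrm1, among others, would lie below 0. With the authors' fold enrichment, which divides the pileup by the local background, the members' median was -0.01 and that of all gene-end regions 0.01. The local background around member regions was itself 1.58 times as high in divided as in undivided cells (median), against 1.42 times around all gene-end regions.

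**Figure D3:**
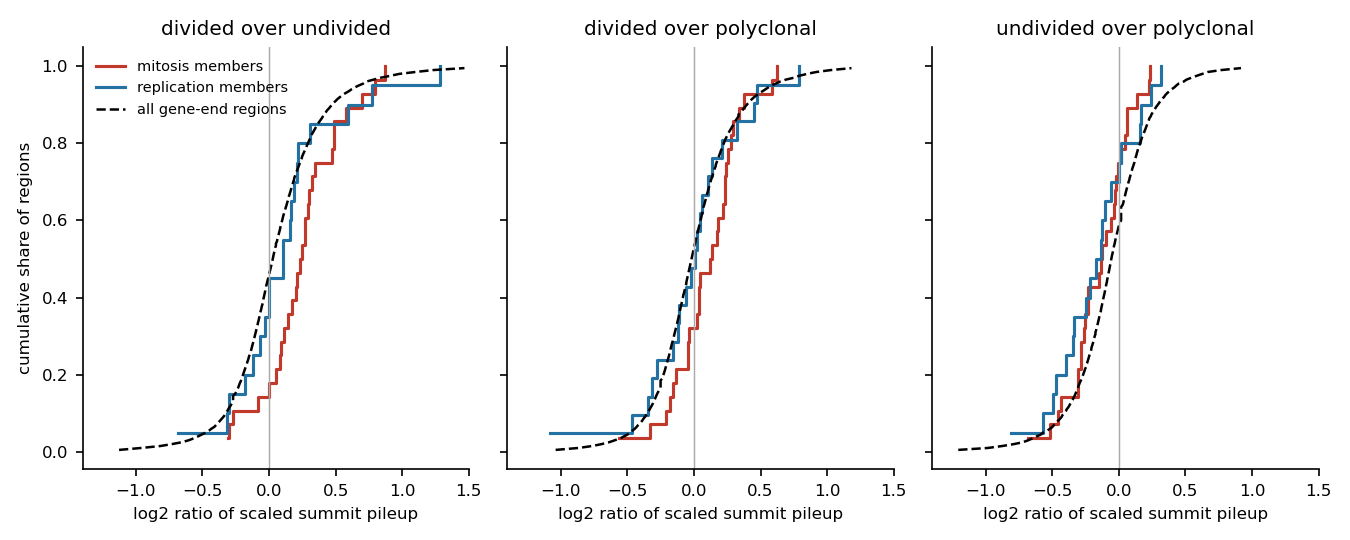
Cumulative share of gene-end regions against the log2 ratio of scaled summit pileup, for mitosis members, replication members and all gene-end regions, in the 3 pairs of fractions. The mitosis curve lies right of that of all genes for divided over undivided, with a median of 0.24 against 0.03, a shift that the authors' fold (not drawn) does not show; for undivided over polyclonal both member curves lie left of it, with medians of -0.13 and -0.15 against -0.06.

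With ratios scaled by shared regions, members stood above gene-end regions of like height in this pair. The authors' fold was not compared by height. Over all heights it gave members a median of -0.01, against 0.01 for all gene-end regions. Among member regions with a mean pileup of 50 to 100 fragments the median log2 ratio of divided over undivided was 0.20 (15 regions), against 0.07 for all gene-end regions of that height. Below 50 fragments it was 0.35 (4 regions), against 0.11. From 100 to 150 fragments it was 0.24 (19 regions), against 0.00, and from 150 to 250 it was 0.16 (10 regions), against -0.04. Members that held CHR letters had a median of 0.21 (22 genes) and members without them one of 0.19 (16 genes). Members with E2F letters had a median of 0.10 (11 genes) and those without one of 0.25 (27 genes).

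Among transcription regulators, E2f8 differed most. E2f8 encodes an atypical E2F that represses targets of the activating E2Fs. Its gene-end region, chr7:48880648-48881935, had 167 fragments in divided cells, 57 in undivided cells and 101 in polyclonal cells, with its summit 586 bp after the start in divided cells. The log2 ratio of divided over undivided was 1.28 (counting interval 0.84 to 1.74), and 1 member region, this one, passed a fold of 2. The authors' fold enrichment gave a log2 ratio of 0.25, and the local background there was 12.3 fragments in divided and 3.97 in undivided cells. E2f1, an activating E2F, had 184, 137 and 161 fragments in divided, undivided and polyclonal cells. Foxm1, the forkhead factor of mitotic genes, had 80, 64 and 55. E2f2 had 23, 20 and 24 at its strongest gene-end region and was higher inside the gene, where a region overlapping its second RefSeq promoter window had 103, 73 and 94 fragments. Apart from E2f8, the counting interval of divided over undivided at the strongest gene-end region of each regulator included 0.

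Genes of licensing and of the replication fork had a median log2 ratio of divided over undivided of 0.00 over 10 regions, of which 6 were above 0, against 1 when scaled by background and 7 by the authors' fold. Cdt1, which loads the MCM helicase, had the highest ratio, with 129 fragments in divided cells, 71 in undivided cells and 101 in polyclonal cells (log2 ratio of divided over undivided 0.59, 0.16 to 1.03). The local background at Cdt1 was 9.90 fragments in divided and 5.40 in undivided cells. Mcm6 had 129, 133 and 108 fragments in divided, undivided and polyclonal cells, the lowest ratio of a strongest region in this pair (-0.31, -0.67 to 0.05). Mcm4 had 230, 207 and 209, Gins2 220, 160 and 177, and Pcna, the sliding clamp, 182, 154 and 139 in the same order. The other helicase subunits had ratios from -0.18 at Mcm2 to 0.11 at Mcm7. Cdc6, which acts with Cdt1, had 88, 63 and 54 fragments and a ratio of 0.21 (-0.27 to 0.70).

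Nucleotide supply genes were split. Tyms, thymidylate synthase, had 33 fragments at its start in divided cells, 16 in undivided and 24 in polyclonal cells (divided over undivided 0.77, -0.13 to 1.73). Its 3′-end region had 9, 12 and 16 fragments (-0.69, -2.11 to 0.69) and was the member region past 1.5-fold on the lower side. Rrm1, the large subunit of ribonucleotide reductase, had 100, 102 and 116 (-0.30, -0.71 to 0.11). Rrm2, the small subunit, had 191, 141 and 128 (0.17, -0.15 to 0.49). At these counts only a difference larger than the intervals could have been seen.

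Of the cyclins and Cdk1, 6 of 6 regions had a log2 ratio of divided over undivided above 0 (median 0.29), against 2 of 6 when scaled by background and 3 of 6 by the authors' fold. Cdk1 had 142 fragments in divided cells, 85 in undivided cells and 92 in polyclonal cells (divided over undivided 0.47, 0.07 to 0.88). By the authors' fold the ratio of Cdk1 was -0.08, with a local background of 8.78 fragments in divided and 4.11 in undivided cells. Ccnb2, a cyclin B, had 81, 48 and 57 (0.48, -0.05 to 1.03). Ccnb1 had 132, 91 and 108, Ccna2 177, 127 and 123, Ccne1 115, 77 and 108, and Ccne2 193, 138 and 176.

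The mitotic kinases and checkpoint genes had ratios of divided over undivided on both sides of 0. Plk1, the polo kinase of mitotic entry, had 66 fragments in divided cells, 30 in undivided cells and 37 in polyclonal cells (0.87, 0.22 to 1.54). Its summit lay at position -238 bp from the start in divided cells, and the ratio was -0.10 by the authors' fold, with a local background of 7.17 fragments in divided and 2.23 in undivided cells. Aurkb, the kinase of the chromosomal passenger complex, had 80, 41 and 57 (0.69, 0.13 to 1.27), and by the authors' fold its ratio was 0.50. Aurka, the kinase of spindle poles, had 82, 84 and 102 (-0.30, -0.76 to 0.15), in a region shared with Cstf1. Bub1, of the spindle checkpoint, had 90, 90 and 78 (-0.27, -0.71 to 0.17). Bub1b had 86, 88 and 91 at its 3′ end (-0.30, -0.75 to 0.14) and 81, 63 and 58 at its start (0.09, -0.40 to 0.59). Cdc20, which activates the anaphase ubiquitin ligase, had 148, 111 and 139, and Chek1, the replication checkpoint kinase, 118, 91 and 96.

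Of the centromere and passenger genes, 5 of 5 regions had a ratio above 0 (median 0.29), against 1 of 5 when scaled by background and 5 of 5 by the authors' fold (median 0.21). Cenpe, a kinetochore motor, had 99 fragments in divided cells, 55 in undivided cells and 54 in polyclonal cells (divided over undivided 0.58, 0.09 to 1.08). Cenpa had 203, 149 and 155, Cenpf 189, 130 and 163, Birc5 107, 72 and 104, and Cdca8 99, 67 and 81. Their ratios ran from 0.18 to 0.58, and that of Cenpe alone had an interval above 0. The local background at Cenpe was 5.32 fragments in divided and 2.58 in undivided cells.

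Of the spindle and cytokinesis genes, 8 of 9 regions had a ratio above 0 (median 0.24), against 3 of 9 when scaled by background and 4 of 9 by the authors' fold. Anln, the scaffold anillin of the contractile ring, had 88 fragments in divided cells, 42 in undivided cells and 68 in polyclonal cells (0.80, 0.25 to 1.36). By the authors' fold its ratio was -0.02, with a local background of 6.38 fragments in divided and 2.23 in undivided cells. The region below 0 was that of Ect2, with 199, 175 and 184 (-0.08, -0.39 to 0.22). The motors Kif11, Kif20a and Kif23 had 169, 119 and 121, then 160, 123 and 119, then 163, 108 and 133 fragments in divided, undivided and polyclonal cells. Nusap1, Prc1, Tpx2 and Hmmr, which bind spindle microtubules, had ratios from 0.08 at Hmmr to 0.34 at Nusap1. Of the chromosome structure genes, Mki67, whose product Ki-67 marks cycling cells, had 152 fragments in divided cells, 90 in undivided cells and 101 in polyclonal cells (0.49, 0.10 to 0.88). Its ratio was -0.41 by the authors' fold, where the local background was 12.2 fragments in divided and 4.41 in undivided cells. Top2a had 117, 97 and 97 (0.00, -0.40 to 0.40).

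Divided and polyclonal cells were compared over 49 member regions. The median log2 ratio was 0.04, with 30 above 0, against -0.02 for all gene-end regions. It was -0.19 against -0.25 when scaled by background, and -0.07 against -0.01 by the authors' fold, so its sign depends on the scale. Past 1.5-fold, 2 regions were higher in divided cells, against 4.93% of all, and 1, the 3′ end of Tyms (-1.08), was lower, against 3.09%. The higher ones were Cenpe (0.62, 0.13 to 1.13) and the second region of E2f2 (0.79, -0.04 to 1.66). Intervals lay above 0 at 2 regions, Cenpe and E2f8 (0.47, 0.11 to 0.85), against 3.70% of all, and below 0 at 2, Aurka (-0.57, -1.0 to -0.13) and Rrm1 (-0.46, -0.87 to -0.07), against 4.48%. Scaling by background shifts every ratio of this pair by -0.23, so neither Cenpe nor E2f8 would keep an interval above 0. The next highest strongest regions were Plk1 (0.58), Cdc6 (0.45) and Cdk1 (0.38), and the next lowest Mcm5 (-0.34), Bub1b (-0.33) and E2f2 (-0.31). The Bub1b value is that of its 3′ end, and at its start the ratio was 0.23. This pair shares the divided library with the previous one.

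Undivided cells were somewhat below polyclonal cells. The median was -0.13 over 48 member regions, with 13 above 0, against -0.06 for all gene-end regions. Mitosis and replication members had medians of -0.13 and -0.15. Past 1.5-fold, 0 regions were higher in undivided cells, against 2.50% of all, and 2 were lower, against 4.53%. These were E2f8 (-0.81, -1.30 to -0.33) and Anln (-0.68, -1.27 to -0.10). Intervals lay above 0 at 0 regions, against 1.40% of all, and below 0 at 7, against 3.74%. Besides E2f8 and Anln these were Cdt1 (-0.49), Birc5 (-0.51), Ccne1 (-0.47), Prc1 (-0.43) and Ccne2 (-0.33). Tyms had a ratio of -0.57 with an interval from -1.58 to 0.40. The highest were Mcm6 (0.32, -0.06 to 0.70), Cdc6 (0.24), Foxm1 (0.24), Bub1 (0.22) and Pcna (0.16). Scaled by background the members' median was -0.05, against 0.03 for all gene-end regions. That scaling raises every ratio by 0.08, so of the 7 intervals only those of E2f8 and Anln would stay below 0. The interval of Mcm6 would then lie above 0. By the authors' fold the members' median was -0.03, against -0.01. At E2f8 the undivided library was thus the lowest of the 3 by scaled pileup and the divided library the highest.

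Regions away from gene ends were more variable and made up 71 of the 122, 31 inside a member and 40 outside. They were called in all 3 libraries in 36 of 71 cases (50.7%, 39.3 to 62.0), against 49.6% of all regions away from gene ends. In divided and not undivided cells 19 were called (26.8%), against 25.2% of all, and in undivided and not divided cells 9 (12.7%), against 11.8%. In divided and not polyclonal cells 19 were called, against 21.5%, and in polyclonal and not divided cells 6 (8.45%, 3.93 to 17.2), against 13.5%. In undivided and not polyclonal cells 10 were called, against 11.8%, and in polyclonal and not undivided cells 7 (9.86%, 4.86 to 19.0), against 17.1%. The polyclonal-side shares were thus below those of all such regions, with intervals that include them, and the shares of divided against undivided cells were near them. E2f2 with 9 and Ccne1 with 9 regions held the most, followed by Cenpf with 6 and E2f8 with 5.

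Several of them were higher in divided cells by scaled pileup. Ratios by the authors' fold were not computed for regions away from gene ends. A region inside Bub1b, chr2:118620483-118621201, had 39 fragments in divided cells, 9 in undivided cells and 28 in polyclonal cells (divided over undivided 1.85, 0.78 to 3.08). A region inside Kif11, which encodes the motor that separates spindle poles, had 28, 8 and 12 (1.54, 0.37 to 2.88). Another region inside Kif11, close to it, had 22 fragments in divided cells at a −log10 q of 15.7 and was called in no other library. A region 3752 bp from Ccnb1 had 49, 19 and 28 (1.10, 0.31 to 1.94), and one 13465 bp from Cdk1 had 20, 8 and 11 (1.05, -0.19 to 2.44). A region that overlaps Kif20a and Cdc23 had 39, 17 and 27 (0.93, 0.07 to 1.84). Scaling by background shifts these ratios by -0.31. Of the intervals named here only those of Bub1b (lower limit 0.78) and Kif11 (0.37) would then stay above 0. The local background was higher in divided cells at each of these regions called in both, such as 10.1 against 5.32 fragments near Ccnb1. Past 1.5-fold were 8 of 41 regions called in both on the higher side, against 14.2% of all, and 7 on the lower side, against 13.3%.

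Others were higher in undivided cells by scaled pileup. For these too, ratios by the authors' fold were not computed. Scaling by background shifts them by -0.31, further below 0. At Kif23, a region inside the gene had 7 fragments in divided cells, 17 in undivided cells and 12 in polyclonal cells (-1.55, -3.06 to -0.21), and another had 10, 21 and 23 (-1.34, -2.59 to -0.19). The local background was 1.21 fragments in divided and 1.15 in undivided cells at the former, and 1.21 and 1.65 at the latter. Regions 37850 and 31083 bp from Cenpf had 30, 46 and 24 fragments (-0.89, -1.60 to -0.19) and 39, 57 and 34 fragments (-0.82, -1.44 to -0.20) in divided, undivided and polyclonal cells. Both were also higher in undivided than in polyclonal cells, by 0.96 and 0.76 on the log2 scale. Their local background was 1.21 and 2.82 fragments in divided cells, against 2.06 and 4.08 in undivided cells. A region inside E2f2 had 47, 64 and 56 (-0.72, -1.29 to -0.15), and one 6400 bp from Cdt1 had 47, 60 and 50 (-0.62, -1.20 to -0.05). The local background was 2.31 fragments in divided and 3.06 in undivided cells at the E2f2 region, and 10.1 and 7.49 at the Cdt1 region. At the start of Kif23 the ratio was 0.32 (-0.04 to 0.69), the other way from the regions inside it.

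**Figure D4:**
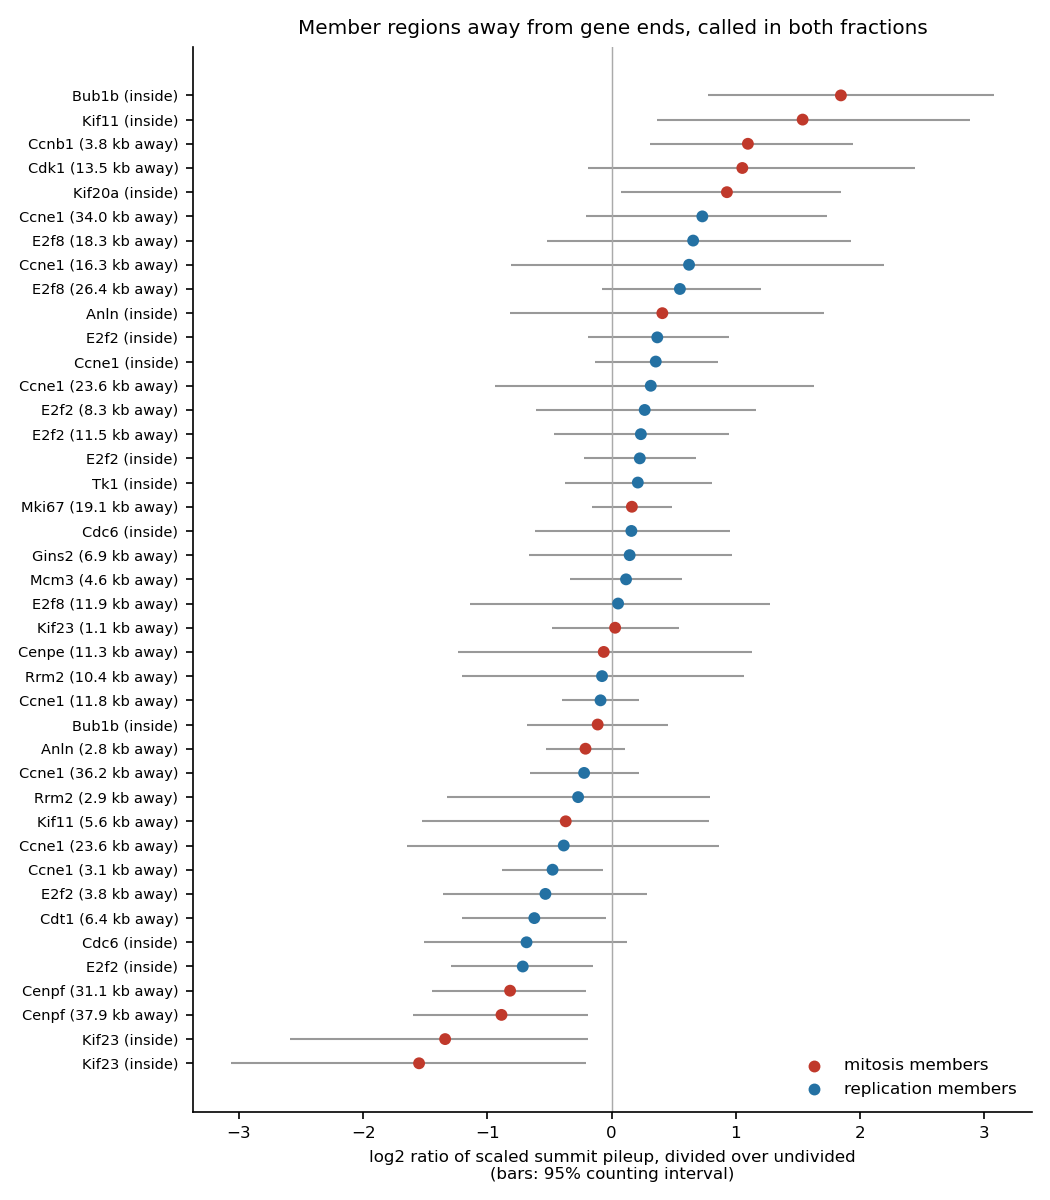
Log2 ratio of scaled summit pileup, divided over undivided, with its 95% counting interval, for the 41 member regions away from gene ends called in both fractions. Ratios run from -1.55 inside Kif23 to 1.85 inside Bub1b, with 23 of 41 above 0.

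In the pairs with polyclonal cells, 7 of 41 regions were higher in divided cells past 1.5-fold, against 14.5% of all, and 3 were lower, against 9.94%. In undivided over polyclonal cells 4 of 40 were higher, against 8.92%, and 3 lower, against 8.45%. The lowest was the Bub1b region with 9 fragments in undivided and 28 in polyclonal cells (-1.62, -2.89 to -0.50). The region inside Kif11 with 28 fragments had a ratio of 0.97 in divided over polyclonal cells (-0.05 to 2.08).

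One-sided regions with a −log10 q of at least 5 were seen at 15 members, the second region of E2f2 and that of Tk1 at gene ends among them. By region these were 2 of 51 at gene ends (3.92%), against 8.78% of all, and 19 of 71 away from them (26.8%), against 28.6% of all, so such regions were no more frequent at members. Called in divided cells alone were a region inside Prc1 that also lies in Rccd1, with 32 fragments at a −log10 q of 17.4, one inside E2f2 with 43 fragments at 6.43, one 26495 bp from Ccne1 with 12 and one 15177 bp from Cenpf with 11. Regions inside Cenpf, Cenpe and Bub1b with 10 fragments each were also called in divided cells alone, just past that q. Called in divided and polyclonal and not in undivided cells were regions 1016 bp from Cdc6 with 34 and 20 fragments, inside Cdca8 with 14 and 10, and inside Prc1 with 11 and 5. Called in both CBir1 fractions and not in polyclonal cells were regions inside Bub1b with 58 and 52 fragments in divided and undivided cells, 6853 bp from Gins2 with 32 and 24, 18264 bp from E2f8 with 19 and 10, 10435 bp from Rrm2 with 16 and 14 and 23601 bp from Ccne1 with 12 and 13. The Bub1b region had −log10 q values of 28.9 and 22.4 and no polyclonal peak at the authors' threshold. Called in undivided and polyclonal and not in divided cells were regions inside Anln with 13 and 8 fragments, 53906 bp from Cenpf with 11 and 8 and inside Kif23 with 9 and 13.

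Related genes outside the list had ratios in the same range. Over 49 gene-end regions of other mitosis genes the median log2 ratio of divided over undivided was 0.15, with 33 above 0, and over 36 of other replication genes it was 0.07, with 23 above 0. For 16 regions of G1 cyclins, their kinases and inhibitors it was -0.01, with 7 above 0. For 18 regions of T cell genes it was -0.05 and for 11 regions of effector and activation genes 0.26. In divided over polyclonal cells the medians of other mitosis and other replication genes were 0.06 and -0.06, and in undivided over polyclonal cells -0.08 and -0.12. Pileups come from sorted bulk cells, so a larger share of cells with an open site and a more open site in each cell cannot be told apart.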

How the data were processed

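ATAC-seq was analysed in 3 libraries, 1 for each fraction. Per the submitters' processing notes, MACS2 2.1.0, Bowtie2 2.3.2 and the build mm10 were used, with Trimmomatic 0.33, cutadapt 1.12, bcl2fastq 2.17, SAMtools and Picard. The sources used here do not state how duplicate pools entered a list or whether reads were shifted for the transposase. Each deposited peak row holds a score, the fold enrichment as a ratio, a −log10 p-value, a −log10 q-value and a summit offset. The deposited score is a scaled q-value and was not used.

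From these files, computed here with Python 3.11.15, scipy 1.17.1 and pandas 2.3.3, the whole pileup and local background at each summit were found from the fold, read as (pileup + 1)/(background + 1), and the Poisson −log10 p, within 0.001 of the deposited −log10 p. The lists held 47963 divided, 41876 undivided and 44426 polyclonal peaks. Depth is known only through the lowest background. Regions were assigned to the nearest RefSeq protein-coding gene span, ties kept, and 3022 had none within 100000 bp. Exons and introns were not told apart. Ratios have exact binomial 95% intervals and shares Wilson ones. The scripts were tested on simulated data. With 1 library a fraction no test between fractions was run, and ratios were counted as past a fold of 1.5. A region was called in a library where that library's deposited list had a peak in it.

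The members, the related gene lists and the marker lists were chosen with earlier results of these data known. Values were named for the 5 highest and 5 lowest ratios at strongest gene-end regions per pair, for one-sided regions with a −log10 q of at least 5, for members with no gene-end region in a fraction and for the 5 highest and 5 lowest divided pileups. Further regions away from gene ends were named after their values were seen. Promoter windows were RefSeq's, on GRCm38.p6. Alternatives were stricter q thresholds, other gene-end limits, merging and assignment rules, 3 other scalings and a fold of 2.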

Additional observations from a re-analysis of the deposited data

How the results depend on the processing

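No paired analysis was possible because each fraction had 1 library and no test between fractions was run. Pileups are recovered values, read totals are not known, and the choice of scale decides the sign of the members' median ratio in both pairs with the divided library. The median log2 ratio of divided over undivided was 0.18 as reported, -0.13 scaled by background and -0.0059 by the authors' fold; that of divided over polyclonal was 0.04, -0.19 and -0.072, and that of undivided over polyclonal -0.030 by the authors' fold. By that fold the ratios of Anln and Plk1, divided over undivided, were -0.015 and -0.099. The cause of these changes was not tested.

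Regions higher past 1.5-fold in divided than undivided cells numbered 6, against 1 scaled by background, 0 by the authors' fold and 1 at a fold of 2; those lower numbered 1, against 0 with a gene end of 500 bp, 5 by background, 0 at strongest regions and 0 at a fold of 2. For divided over polyclonal, the 2 higher became 1 (500 bp), 0 (background), 0 (authors' fold), 1 (strongest regions) and 0 (fold of 2), and the 1 lower became 0 (500 bp), 3 (background), 2 (authors' fold) and 0 (strongest regions). For undivided over polyclonal, the 2 lower became 1 (only nearest gene), 0 (authors' fold) and 0 (fold of 2).

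One-sided counts moved with thresholds. Near gene ends, divided not undivided gave 0 at a −log10 q of 10, 1 with 500 bp and 8 with 2 kb; undivided not divided gave 2 at a −log10 q of 5 and 2 with 2 kb; divided not polyclonal gave 0 at 10, 1 with 500 bp, 6 with 2 kb and 1 by only nearest gene; polyclonal not divided gave 2 at 5 and 1 at 10; undivided not polyclonal gave 2 with 2 kb; polyclonal not undivided gave 0 at 5, 0 with 500 bp and 2 with 2 kb. Away from gene ends, divided not undivided gave 10 at a −log10 q of 10 and 7 when the pileup, scaled to the library without the call, had to reach the lower quartile of that library's peaks. Under that depth limit undivided not divided gave 2, divided not polyclonal 10, polyclonal not divided 1, undivided not polyclonal 5 and polyclonal not undivided 1. Undivided not divided also gave 3 at 5 and 5 at 10, polyclonal not divided 2 and 3, undivided not polyclonal 6 at 5, and polyclonal not undivided 3 at 10. Merging with 100 bp of overlap and a 20 kb limit on the nearest gene, tried on the one-sided counts, left each within 1.5 times. Scaling by gene-end regions, tried on the medians and fold counts, moved no count past 1.5 times. With it the members' median was 0.16 for divided over undivided, 0.07 for divided over polyclonal and -0.08 for undivided over polyclonal.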
